A study of Mus musculus with 27 samples.

Results

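Acod1, Kynu, Kmo, Upp1 and Uck2 encode enzymes that make itaconate, break down tryptophan through kynurenine and recycle uridine. They are 5 of the 41388 gene rows of a count table from sorted dural macrophages, and each row was found by its Ensembl identifier. The genes were chosen by measured values of these libraries: their counts in the groups named total T cells and no T cells below were already known. Comparisons that use libraries of either group are therefore a description of the 5 genes, with no test. All host mice carried the Rag1 ko genotype on the B6 strain, which removes their own T and B cells, and were 16 to 19 weeks old. The 7 groups differed in the donor T cells that the mice had received 6.5 weeks earlier. The no T cells group (6 libraries: 4 F, 2 M) had received none and was labelled as steady state. The total T cells group (5 libraries: 4 F, 1 M) had received total T cells of B6 origin. Knockout T cells gave the Tbet ko, IFNg ko and IL-17AF ko groups (2 F libraries each), the IL22 ko group (2 F, 1 M) and the IL6Ra ko/IL21R ko group (3 F, 4 M). T-bet is the transcription factor of interferon-gamma producing T cells, and IL-6 and IL-21 act on T cells through the receptors removed in the last of these groups. The knockouts were in the donor cells, so the macrophages themselves kept these genes. In the text a library is named by its group, F or M, and a running number.

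Acod1 encodes the mitochondrial enzyme that turns cis-aconitate of the citrate cycle into itaconate, which inhibits succinate dehydrogenase and activates NRF2. It is known for its strong induction in inflammatory macrophages. Kmo and Kynu act one after the other on kynurenine, the product of tryptophan breakdown by the Ido enzymes, on the route to NAD. Kmo adds a hydroxyl group to kynurenine, and Kynu cleaves kynurenine and 3-hydroxykynurenine. Upp1 and Uck2 compete for the same nucleoside. Upp1 splits uridine into uracil and ribose-1-phosphate, and Uck2 phosphorylates uridine and cytidine to return them to the nucleotide pool.

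All 5 are protein-coding genes in the GENCODE M21 annotation of GRCm38. Acod1 (ENSMUSG00000022126) lies on chromosome 14 from 103046977 to 103056573 on the + strand and has 2623 exon bases. Kynu (ENSMUSG00000026866) lies on chromosome 2 from 43555329 to 43682715 on the + strand and has 6149 exon bases. Kmo (ENSMUSG00000039783) lies on chromosome 1 from 175620381 to 175662116 on the + strand and has 4724 exon bases. It overlaps Fh1 on the other strand but shares 0 exon bases with it. Upp1 (ENSMUSG00000020407) lies on chromosome 11 from 9118103 to 9136170 on the + strand and has 1961 exon bases. Uck2 (ENSMUSG00000026558) lies on chromosome 1 from 167222883 to 167285320 on the - strand and has 5464 exon bases. It shares 150 of them with the lincRNA Gm2453 on the other strand, and the unstranded kit cannot assign reads from those bases to either gene.

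The promoters of Acod1 and Upp1, the members with the highest fold between total T cells and no T cells, are shown because these 2 genes also had the most alike pattern over the libraries. They come from RefSeq's GRCm38.p6 promoter windows (250 bases before to 50 after a start), in which 4 of the 5 genes were matched. The Acod1 stretch ends at the base before the annotated gene start given above, and the Upp1 stretch at the base before the first of its 3 RefSeq starts. Capitals mark a match to AP-1 (TGANTCA), 45 bases before that start of Upp1 and 140 bases before the second.
Acod1 chr14:103046762-103046976 (GRCm38.p6, + strand): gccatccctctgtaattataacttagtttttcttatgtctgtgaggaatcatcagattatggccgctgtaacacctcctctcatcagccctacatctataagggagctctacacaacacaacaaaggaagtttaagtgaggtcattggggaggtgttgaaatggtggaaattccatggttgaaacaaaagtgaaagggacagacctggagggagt
Upp1 chr11:9117758-9118007 (GRCm38.p6, + strand): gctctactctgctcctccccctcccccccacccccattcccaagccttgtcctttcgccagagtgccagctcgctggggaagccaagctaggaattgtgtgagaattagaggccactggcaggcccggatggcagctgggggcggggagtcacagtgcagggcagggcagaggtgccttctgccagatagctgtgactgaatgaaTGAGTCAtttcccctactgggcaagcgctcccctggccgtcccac

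Motifs were searched on both strands of the whole windows, without regard to overlaps between motifs. The AP-1 letters were in 7.81% of all 32851 windows. The GAS letters (TTCNNNGAA, 8.30%), the paired interferon-regulatory motif (3.44%) and the NF-kB motif (8.46%) had no match in the windows of Acod1, Kmo, Upp1 and Uck2. The hypoxia element ACGTG (19.6%) had 1 match in the Acod1 window, 18 bases before the RefSeq start, and 1 in the second Upp1 window, 34 bases after that start. Both lie outside the stretches printed. The NRF2 element TGANNNNGC (41.3%) had matches in the Uck2 window.

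The libraries held 6902602 to 19966749 counts. They fell into 3 sets by the share of counts in ribosomal protein genes: 2.93% to 3.59% in set A (7 libraries), 1.23% to 1.73% in set B (13) and 0.796% to 0.939% in set C (7). Set A held no T cells and total T cells only (F1, F2, M1 and M2 without T cells, F1, F2 and M1 with total T cells). Set B held F3 and F4 of both of these groups, the IL22 ko group and all IL6Ra ko/IL21R ko libraries but M4. That library and the Tbet ko, IFNg ko and IL-17AF ko groups formed set C, so these 3 groups share no set with either control group, and group and set cannot be told apart there. All 8 macrophage markers (such as Adgre1, Csf1r and C1qa) were counted in every group, and their sum was 11380 to 25010 CPM, where CPM is the count divided by the TMM-scaled library size. The labels do not say whether a library is 1 animal or a pool, so the spread given is between libraries.

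Acod1 was far higher with total T cells than in any other group. Its level was 447, 138, 75.8, 105 and 587 CPM in total T cells F1, F2, F3, F4 and M1. Without T cells the lowest, median and highest libraries had 0.966, 3.49 and 29.7 CPM. All 5 total T cell libraries lay above all 6 without T cells, as did 6.49% of the 12682 genes tested. The difference was 5.12 ± 0.74 on the log2 scale (SE), a 34.8-fold higher level, and the difference was 5.79 among set A libraries and 4.51 among those of set B. In a bulk sample more cells that express a gene and more RNA per cell cannot be told apart.

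Acod1 was lower in each knockout group than with total T cells. IL6Ra ko/IL21R ko libraries had 1.93, 5.66 and 8.63 CPM (lowest, median, highest), all below the total T cell libraries, as held for 6.52% of genes. The Tbet ko pair had 7.29 and 8.69 CPM, the IFNg ko pair 10.3 and 3.37 CPM and the IL-17AF ko pair 17.2 and 19.5 CPM. The IL22 ko libraries F1, F2 and M1 had 34.0, 10.4 and 59.8 CPM. All lay below total T cells, as for 4.6% of genes, and F2 also lay below the IL-17AF ko pair. In the order of group means Acod1 ran from total T cells (270 ± 231 CPM, SD, n = 5) through IL22 ko (34.7 ± 24.7, n = 3) and IL-17AF ko (18.3 ± 1.65, n = 2) to Tbet ko (7.99), no T cells (7.49), IFNg ko (6.84) and IL6Ra ko/IL21R ko (5.45). Neighbours in this order overlapped from Tbet ko downward, and IL22 ko overlapped IL-17AF ko.

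Kynu followed the same order at the top, at lower levels. Total T cell libraries F1, F2, F3, F4 and M1 had 42.3, 13.2, 3.44, 8.13 and 25.5 CPM. Libraries without T cells had 0, 0.492 and 1.92 CPM (lowest, median, highest), which corresponds to 0 to 32 counts. Every total T cell library lay above them, as for 6.49% of genes. The log2 difference was 4.55 ± 0.77 (23.4-fold), with 4.91 in set A and 4.2 within set B. IL6Ra ko/IL21R ko libraries had 0.609, 1.34 and 2.70 CPM, all below total T cells, as for 6.52% of genes. IL22 ko F1, F2 and M1 had 2.18, 2.02 and 14.9 CPM, so the level of this group rested on 1 library. The Tbet ko pair (1.28 and 0.494 CPM), the IFNg ko pair (2.61 and 2.13) and the IL-17AF ko pair (0.432 and 2.86) were also below every total T cell library. The same held for 22.7%, 23% and 20.5% of genes. The IFNg ko pair lay above every library without T cells, as did 14% of genes.

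Kmo, the enzyme before Kynu, went the other way by a small amount. Its level was 46.3, 58.3 and 72.4 CPM without T cells (lowest, median, highest) and 25.0, 38.1, 82.3, 45.1 and 25.1 CPM in total T cells F1, F2, F3, F4 and M1. The groups overlapped, because total T cells F3 had more than any library without T cells. The log2 difference was -0.49 ± 0.23, with -0.91 among set A libraries and -0.17 among those of set B. Without total T cells F3 it was -0.85. IL6Ra ko/IL21R ko libraries had 62.8, 75.6 and 88.6 CPM, a log2 difference of 0.91 ± 0.23 from total T cells that was 0.19 within set B. The IL22 ko (52.1, 77.4 and 59.2), Tbet ko (68.8 and 83), IFNg ko (61 and 69.9) and IL-17AF ko (73.8 and 51.3) libraries lay between the lowest library without T cells and the highest IL6Ra ko/IL21R ko library.

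Read per kilobase of exon, Kynu was the minor member of the pair in nearly all libraries. Its level per kilobase divided by that of Kmo was 0 to 0.0224 without T cells. With total T cells the ratio was 1.30, 0.267, 0.0321, 0.138 and 0.780 in F1, F2, F3, F4 and M1, so Kynu passed Kmo in F1 alone. It was 0.00737 to 0.0237 with IL6Ra ko/IL21R ko T cells and 0.0321, 0.0200 and 0.194 in IL22 ko F1, F2 and M1. The ratio describes unequal levels of the 2 transcripts and shows nothing of the flow through the enzymes.

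Upp1 spread widely within the total T cells and no T cells groups. Total T cells F1, F2, F3, F4 and M1 had 150, 17.4, 1.67, 20.1 and 107 CPM. Without T cells, 4 of 6 libraries had 0 counts, M1 had 7 counts and F2 had 136 counts (7.81 CPM). The groups overlapped, because total T cells F3 lay below that F2 library. The log2 difference was 5.36 ± 1.11 (41.0-fold), and without the F2 library of the no T cells group it was 8.94. In set B both libraries without T cells were at 0. Against 3 counts over those libraries together (0.186 CPM) the mean of 10.9 CPM with total T cells was at least 58.4-fold higher, while in set A the difference was 5.64 on the log2 scale. All knockout groups were low: 0, 0.697 and 2.29 CPM with IL6Ra ko/IL21R ko T cells, 0.394 and 0.0988 with Tbet ko, 1.65 and 0.444 with IFNg ko, 0.288 and 0.260 with IL-17AF ko, and 2.27, 0.825 and 4.88 with IL22 ko. These values stand for 0 to 48 counts a library, so their order is loosely set.

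Uck2 differed least of the 4 members that were higher with total T cells. Its level was 26.8, 16.6, 20.6, 10.3 and 21.3 CPM in total T cells F1, F2, F3, F4 and M1, against 3.16, 9.32 and 11.0 CPM (lowest, median, highest) without T cells. Only total T cells F4 lay inside the range without T cells. The log2 difference was 1.25 ± 0.40 (2.38-fold), or 1.49 for set A and 0.71 for set B. IL6Ra ko/IL21R ko libraries had 2.22, 5.02 and 7.24 CPM, below every total T cell library, as for 6.52% of genes. The log2 difference was -2.15 ± 0.40, and -2.07 within set B. The Tbet ko pair (0.689 and 2.47 CPM) lay below every library without T cells, as did 13.1% of genes. The IFNg ko pair had 3.99 and 4.61 CPM, the IL-17AF ko pair 8.0 and 1.56, and the IL22 ko libraries F1, F2 and M1 had 7.16, 7.88 and 20.6.

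Per kilobase of exon Upp1 exceeded Uck2 by 15.6, 2.93, 5.46 and 14 times in total T cells F1, F2, F4 and M1, and was below it, at 0.226, in F3. Without T cells the ratio of Upp1 to Uck2 was 0 in 4 libraries, 0.150 in M1 and 1.97 in F2. It ran from 0 to 1.62 over the IL6Ra ko/IL21R ko libraries and was 0.882, 0.292 and 0.659 in the IL22 ko libraries.

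**Figure D1:**
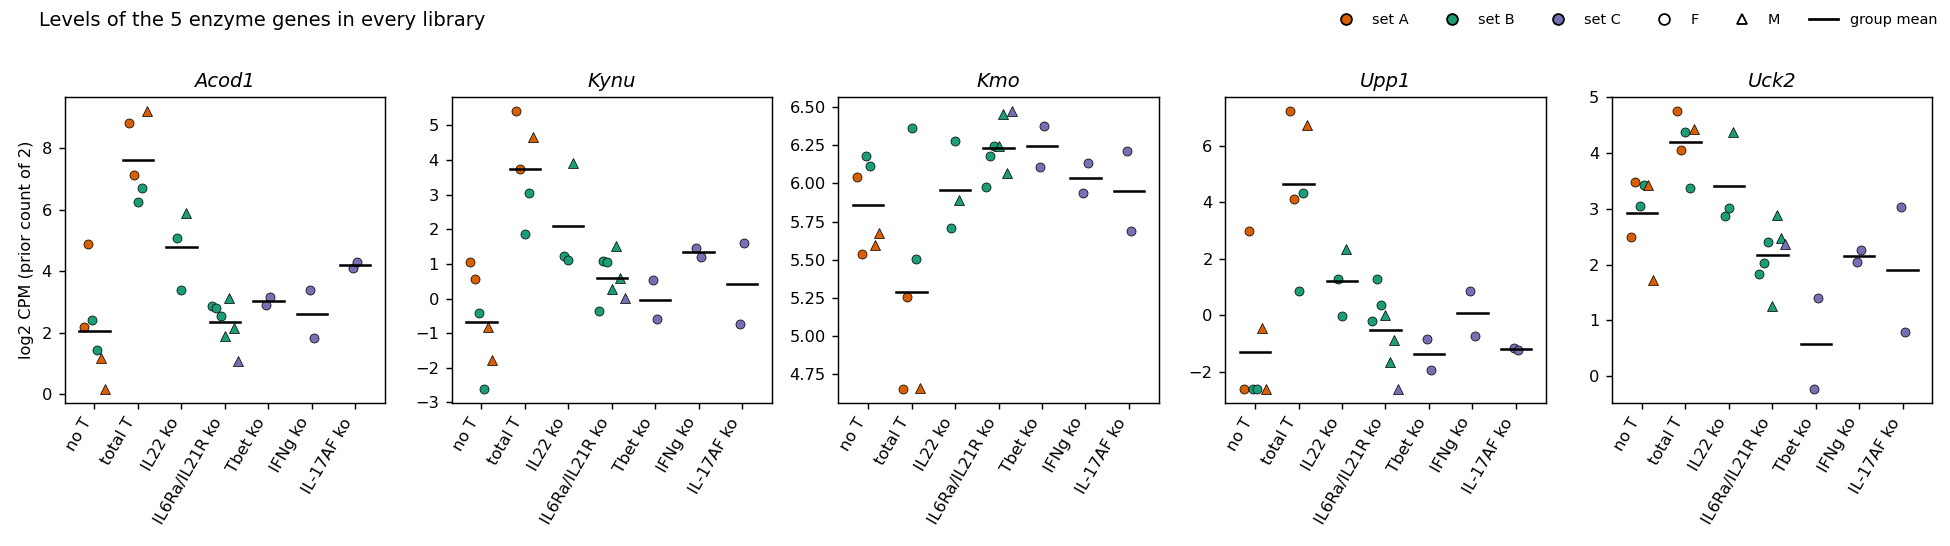
Level of each enzyme gene in all 27 libraries, as log2 CPM with a prior count of 2 (vertical axis), by T-cell group. Colours mark the library sets, circles F and triangles M libraries, and bars the group means. Total T cells have the highest mean for Acod1, Kynu, Upp1 and Uck2 and the lowest for Kmo.

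**Figure D2:**
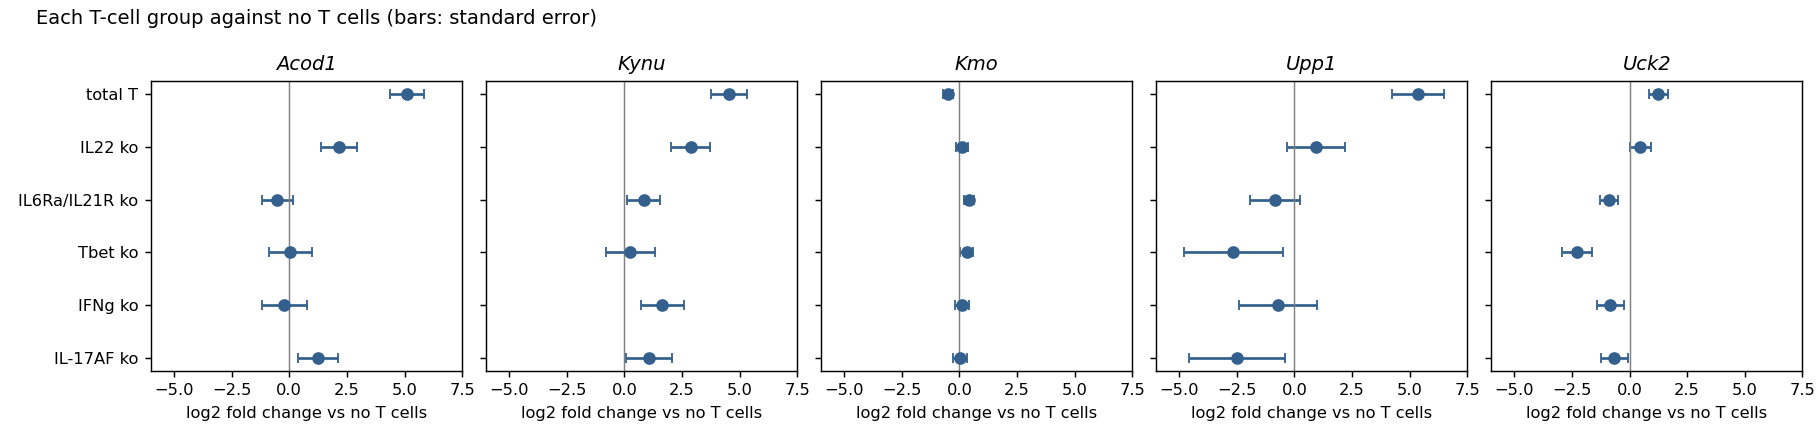
Fitted log2 fold change of each T-cell group against no T cells (horizontal axis), with bars of 1 standard error. Values for total T cells are 5.12, 4.55, -0.49, 5.36 and 1.25 from left to right. Without the no T cells library F2 the Upp1 values of Tbet ko, IFNg ko, IL6Ra ko/IL21R ko and IL-17AF ko change sign to 1.2, 3.15, 2.70 and 1.36, the Acod1 values of IFNg ko and IL6Ra ko/IL21R ko to 1.21 and 0.80, and the Kmo value of IL-17AF ko to -0.05.

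Within the total T cells group the members shared part of their order over the libraries, where F1, F2 and M1 are of set A and F3 and F4 of set B. Libraries F1 and M1 had the highest levels of Acod1, Kynu, Upp1 and Uck2 and the lowest of Kmo. Library F3 had the lowest level of Acod1, Kynu and Upp1 and the highest of Kmo, while Uck2 was lowest in F4. Markers of monocyte-derived cells (Ly6c2, Ccr2, Plac8, Chil3, F10 and Itgal) summed to 7794 CPM in F1, 3463 in M1, 2625 in F2, 1765 in F3 and 1760 in F4. Markers of resident border macrophages (Mrc1, Cd163, Lyve1, Pf4, Folr2 and Cbr2) summed to 879, 1212, 2227, 4192 and 3875 CPM in the same order. The 8 macrophage markers summed to 11380 CPM in F1 and 14990 in M1, against 20480 to 20980 in the other 3 libraries. Without T cells the monocyte-derived sum was 685 to 1199 CPM and the border sum 4635 to 6976. All 6 monocyte-derived markers were called higher and all 6 border markers lower with total T cells (edgeR, adjusted p under 0.05), against 11.6% and 9.36% of all genes. No marker of these lists was at 0 in any group. The part of these cells in the levels of the 5 genes was not tested.

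**Figure D3:**
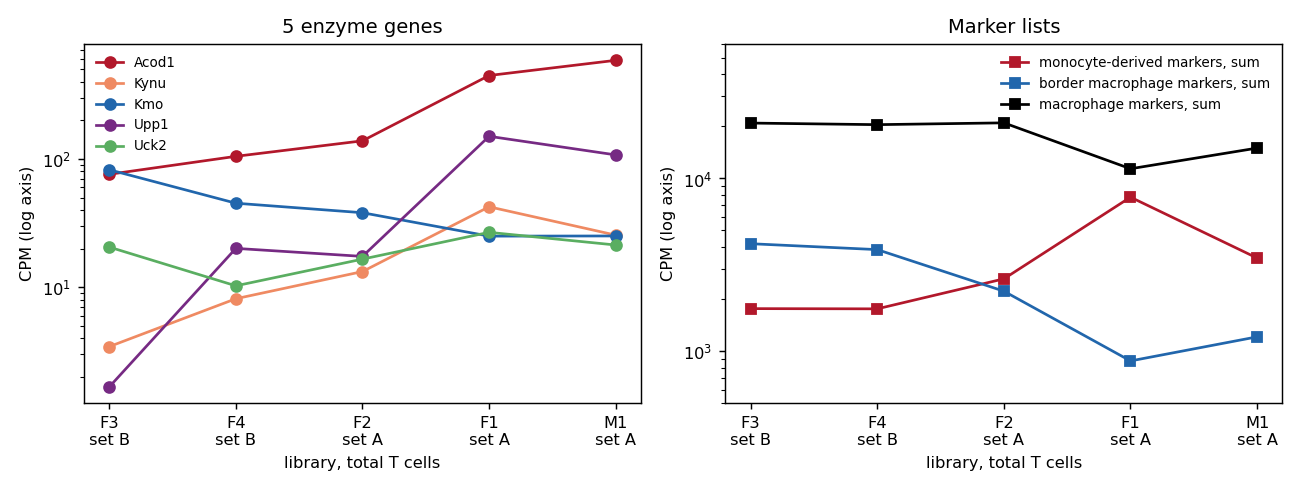
The 5 libraries with total T cells, ordered by their Acod1 level. The left panel gives the CPM of the enzyme genes and the right panel the summed CPM of 3 marker lists, both on log axes, with lines that join values of 1 gene or list. From F3 to M1 Acod1 goes from 75.8 to 587 CPM while the border macrophage sum goes from 4192 to 1212.

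Markers of other cells were read too. Neutrophil markers summed to 89.7 to 315 CPM with total T cells. Without T cells they summed to 51.8 to 910.1, an overlapping range in which the second highest library had 273. Of 3 neutrophil markers tested 1 was called higher with total T cells, and Ly6g and Retnlg were at 0 in all libraries of that group. Dendritic markers summed to 60.4 to 207 CPM with and 86.2 to 144 without T cells, and 2 of 5 were called higher with total T cells (11.6% of all genes). Fibroblast markers (such as Col1a1 and Dcn) summed to 244 to 400 CPM with total T cells and 428 to 1461 without T cells. They summed to 2216 to 3605 CPM in the Tbet ko, IFNg ko and IL-17AF ko groups and to 3540 in IL6Ra ko/IL21R ko M4, the libraries of set C. In the Tbet ko, IFNg ko and IL-17AF ko groups the monocyte-derived sum was 262 to 486 CPM and the border sum 6542 to 9971. Against total T cells, 6, 6 and 5 of 6 monocyte-derived markers were called lower by edgeR (15.1%, 19.5% and 12.5% of all genes). Border markers were called higher in 5, 6 and 3 of 6 (14.8%, 17.3% and 12.6% of all genes). These 3 groups share no set with total T cells. With the library set as a term, 6, 48 and 3 of all genes were called, so group and set cannot be told apart in these calls. With IL6Ra ko/IL21R ko T cells all 6 monocyte-derived markers were called lower (15% of all genes) and all 6 border markers higher (13.1%). Over all genes 3565 were called in that comparison, and 827 within set B, with fewer libraries. The part of these markers in the low levels of Acod1, Kynu, Upp1 and Uck2 in the knockout groups was not tested.

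Against total T cells, the IL6Ra ko/IL21R ko group differed by -5.63 ± 0.70 for Acod1, -3.71 ± 0.71 for Kynu, -6.21 ± 1.10 for Upp1 and -2.15 ± 0.40 for Uck2 on the log2 scale. Within set B these values were -4.07, -2.35, -3.44 and -2.07. Against no T cells the same group differed by -0.51 ± 0.67 for Acod1, 0.84 ± 0.72 for Kynu, 0.43 ± 0.21 for Kmo, -0.85 ± 1.08 for Upp1 and -0.90 ± 0.39 for Uck2. All 5 had overlapping ranges there, where 0.205% of genes lay above and 0.244% below without overlap. Without no T cells F2 the Acod1 and Upp1 values turned to 0.80 and 2.70. Within set B the 5 values were 0.45, 1.85, 0.02, 6.51 and -1.36, where that of Upp1 is a fit against 2 libraries at 0. No direction is therefore given for Acod1 and Upp1 here. The IL22 ko group differed from total T cells by -2.97 ± 0.87 for Acod1, -1.68 ± 0.90 for Kynu, 0.59 ± 0.27 for Kmo, -4.43 ± 1.43 for Upp1 and -0.78 ± 0.50 for Uck2. Within set B these 5 values were -1.58, -0.63, -0.03, -1.84 and -0.71, so the direction of Kmo was lost. Without IL22 ko M1 the Kynu value was -3.23. Acod1 was the only member whose IL22 ko range lay below that of total T cells, as for 4.6% of genes. Against no T cells the IL22 ko values were 2.16 ± 0.77 for Acod1 and 2.87 ± 0.86 for Kynu, and for Kynu the 3 libraries lay above all 6 without T cells, as for 4.02% of genes. Without IL22 ko M1 these values were 1.47 and 1.37, and without no T cells F2 the Acod1 value was 3.45.

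The Tbet ko, IFNg ko and IL-17AF ko groups lay below total T cells without overlap for Acod1, Kynu, Upp1 and Uck2. The same held for 22.7%, 23% and 20.5% of all genes in these comparisons of 2 libraries with 5. Acod1 differed by -5.08 ± 1.21, -5.34 ± 1.24 and -3.88 ± 1.12 on the log2 scale, and Uck2 by -3.53 ± 0.70, -2.09 ± 0.63 and -1.91 ± 0.62. These comparisons share the total T cell libraries with one another. With the library set as a term, which only IL6Ra ko/IL21R ko M4 links to the other sets, the Acod1 values were -2.16, -2.44 and -0.96.

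The comparison of IL22 ko with IL6Ra ko/IL21R ko sets no library of the groups that chose the genes against another, so the members were tested there. Earlier results of these data were known when the members were chosen, and the p-values do not account for that. The edgeR fit still took its estimates of spread and of the sex term from all 27 libraries, those groups included. Acod1 was higher with IL22 ko T cells by 2.67 ± 0.72 on the log2 scale (95% interval 1.19 to 4.14), and all 3 IL22 ko libraries (10.4 to 59.8 CPM) lay above all 7 others (1.93 to 8.63 CPM), as for 2.67% of genes. The edgeR quasi-likelihood test with Benjamini-Hochberg adjustment over all genes did not call it (q = 0.149, unadjusted p = 0.00103). Kynu (2.03 ± 0.76, q = 0.363), Uck2 (1.37 ± 0.44, q = 0.251), Upp1 (1.78 ± 1.24, q = 0.786) and Kmo (-0.32 ± 0.26, q = 0.825) were not called either. Over all genes 1 was called (0.00789%), the Fc receptor gene Fcgr4, named here after its value was seen, with 1089 at an unadjusted p under 0.05. DESeq2 called 83 genes and none of the 5 members. An exact permutation test of mean log2 CPM over the 120 possible assignments, two-sided and not adjusted over genes, gave p = 0.00833 for Acod1, which is the smallest possible, 0.0167 for Uck2, 0.05 for Kynu, 0.1 for Kmo and 0.108 for Upp1. Within set B the 84 possible assignments gave 0.0119 for Acod1, again the smallest possible, and 0.0357 for Uck2.

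Whether Acod1 was called depended on the setting. Within set B alone the adjusted p of edgeR was 0.00706 at 2.48 ± 0.38, while F libraries alone gave q = 1 at 1.75 ± 0.85, and over all alternatives q ran from 3.13e-49 with no filter on low counts to 1. With no filter the log2 difference stayed at 2.67 and its SE was 0.17, so mainly the estimate of spread changed. Without IL22 ko M1 the log2 differences fell to 1.86 for Acod1, 0.32 for Kynu, 0.62 for Upp1 and 0.72 for Uck2. That library had the highest level of these 4 genes among the 3 of its group. Its monocyte-derived sum was 1434 CPM, against 966 and 1137 in F1 and F2 and 259 to 1032 with IL6Ra ko/IL21R ko T cells. Its border macrophage sum was 4026 CPM, against 4914 and 5422 in F1 and F2 and 5403 to 8701 with IL6Ra ko/IL21R ko T cells. The part of these marker levels in the difference was not tested.

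With the filter on low counts the other tests called no member. Between Tbet ko and IFNg ko (2 libraries each) the log2 differences were 0.27 ± 1.18 for Acod1 and -1.44 ± 0.73 for Uck2 (95% interval -2.96 to 0.07, q = 1 by edgeR). No gene was called by edgeR or DESeq2 there (0%, with 444 by edgeR at an unadjusted p under 0.05). The Tbet ko pair lay below the IFNg ko pair for Kynu, Upp1 and Uck2, as did 14.4% of genes. IL-17AF ko exceeded the mean of Tbet ko and IFNg ko by 1.33 ± 0.94 for Acod1 (95% interval -0.62 to 3.27, q = 1), and its pair lay above the other 4 libraries, as for 9.46% of genes. Without a filter on low counts edgeR called this Acod1 difference at the same size (1.33 ± 0.23, q = 3.37e-06). The SE was 0.94 with the filter, so mainly the estimate of spread differed. With the filter 1 gene was called in that comparison (0.00789%), again Fcgr4, and 4 by DESeq2 (489 at an unadjusted p under 0.05). Between M and F libraries the sex term was 0.01 ± 0.57 for Acod1, 0.28 ± 0.59 for Kynu, -0.20 ± 0.18 for Kmo, -0.39 ± 0.84 for Upp1 and 0.27 ± 0.32 for Uck2, with q from 0.857 to 0.997, and 7 genes (0.0552%) were called. The intervals of these differences are wide, so a missed threshold does not show that the levels were alike.

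The other genes of these routes were read in 8 lists with 96 genes, of which 86 passed the filter on low counts. The lists were chosen with earlier results of these data known, so the shares of the lists are only a description. With total T cells 25 were called higher and 7 lower (37.2%). Of all 12682 genes 21% were called, 11.6% higher and 9.36% lower. With IL6Ra ko/IL21R ko T cells against total T cells 8 were called higher and 26 lower (39.5%, against 28.1% of all genes, 13.1% higher and 15% lower). These comparisons share the total T cell libraries. By list, the share called with total T cells was 40% for the itaconate route and citrate cycle and 45.5% for NRF2. The share was 16.7% for kynurenine, 50% for tryptophan and 14.3% for NAD. It was 41.7% for pyrimidine salvage, 22.2% for pyrimidine synthesis and 50% for nucleoside transport. The shares for kynurenine, NAD and pyrimidine synthesis were near or below the share over all genes. Within set B alone, with 2 libraries against 2, no list gene was called for total T cells against no T cells, and 92 of all genes were. IL22 ko against IL6Ra ko/IL21R ko gave 0 of 86 by edgeR (9 at an unadjusted p under 0.05, 8 of them higher) and 2 by DESeq2.

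Around itaconate, 9 of 25 genes of the itaconate route and citrate cycle list rose with total T cells and 1 fell (11.6% and 9.36% of all genes). The median log2 difference was 0.22, against -0.02 over all genes. Sdhb, the iron-sulfur subunit of the succinate dehydrogenase that itaconate inhibits, rose by 0.71 ± 0.13 (q = 0.000424), from 102 ± 9.89 to 166 ± 34.8 CPM. Citrate synthase Cs rose by 0.67 ± 0.10 (q = 7.59e-05), from 136 ± 7.27 to 215 ± 42.8 CPM. The mitochondrial isocitrate dehydrogenase Idh2 fell by 0.73 on the log2 scale (SE 0.15, q = 0.00157), from 149.6 ± 15.3 to 92.0 ± 27.4 CPM. With IL6Ra ko/IL21R ko T cells 9 of the 25 were lower than with total T cells and 1 higher (15% and 13.1% of all genes). Sdhb differed by -0.68, Cs by -0.66 and Idh2 by 0.77, and their means (105, 140.2 and 150.2 CPM) were near those without T cells.

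In the NRF2 list 4 of 11 genes rose and 1 fell with total T cells (11.6% and 9.36% of all genes). Slc7a11, the cystine transporter that feeds glutathione synthesis, rose by 3.42 ± 0.80 (q = 0.00342), from 4.74 ± 4.21 to 50.7 ± 32.8 CPM. Glutathione reductase Gsr rose by 1.11 ± 0.29 (q = 0.00719), from 46.2 ± 15.4 to 95.2 ± 66.7 CPM. Osgin1, a stress response gene, moved the opposite way, by -2.18 ± 0.33 (q = 9.2e-05), from 54.7 ± 14.7 to 11.9 ± 5.30 CPM. Hmox1 (-0.38 ± 0.22) and Nqo1 (-1.41 ± 0.69), classical targets of NRF2, were not called. Against total T cells the IL6Ra ko/IL21R ko group had 4 genes lower (15% of all genes), led by Slc7a11 at -2.69 and Gsr at -1.80. It had 2 higher (13.1%), among them Osgin1 at 2.12.

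Of the 11 other kynurenine pathway genes only 6 passed the filter. The tryptophan-opening enzymes Ido1, Ido2 and Tdo2 did not pass, with at most 18, 6 and 24 counts in any library, nor did Aadat and Acmsd with at most 3 and 5. Got2, a mitochondrial aminotransferase that can also act on kynurenine, was the 1 called member. It rose by 0.66 ± 0.18 (q = 0.00952), from 40.0 ± 6.26 to 63.5 ± 24.1 CPM, and differed by -0.83 with IL6Ra ko/IL21R ko T cells. Downstream of Kynu, Haao (4.72 ± 1.63 CPM without and 6.69 ± 0.887 with total T cells) and Qprt (3.67 ± 1.56 and 2.58 ± 2.22) were low in both groups and were not called.

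Tryptophan supply and sensing genes rose in 5 of 10 members with total T cells, and none fell (11.6% and 9.36% of all genes). Gpr35, a receptor for which kynurenic acid has been described as a ligand, rose by 2.53 ± 0.41 (q = 0.000146), from 17.6 ± 7.21 to 102 ± 54.8 CPM. Wars, the tryptophanyl-tRNA synthetase, rose by 0.94 ± 0.16 (q = 0.000255), from 56.1 ± 6.78 to 108 ± 35.6 CPM. The amino acid transporter Slc36a4 rose by 0.76 ± 0.17 (q = 0.00223). With IL6Ra ko/IL21R ko T cells 6 members were lower than with total T cells (15% of all genes), with Gpr35 at -3.24 and Wars at -0.84. The 1 higher member was Cyp1b1 (1.54 ± 0.51, q = 0.0249), whose libraries in that group spread from 6.46 to 114 CPM. In the NAD list Nampt, which makes NAD from nicotinamide, was the 1 called gene of 7. It rose by 1.53 ± 0.21 (q = 4.18e-05), from 186 ± 24.4 to 537 ± 285 CPM, and was lower by -1.71 with IL6Ra ko/IL21R ko T cells.

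Around uridine, in pyrimidine salvage and breakdown 2 of 12 genes rose and 3 fell with total T cells (11.6% and 9.36% of all genes). Pgm2, which converts the ribose phosphate that Upp1 releases, rose by 0.86 ± 0.17 (q = 0.00101), from 21.2 ± 4.04 to 38.0 ± 10.6 CPM. Uckl1, a relative of Uck2, rose by 0.71 ± 0.23 (q = 0.0261), from 12 ± 3.29 to 19.6 ± 4.08 CPM. The nucleotidase gene Nt5c3b fell by 0.69 on the log2 scale (SE 0.19, q = 0.0124). Cda, Dpyd and Dpys, which act on cytidine and uracil, did not pass the filter, with at most 10, 41 and 28 counts. With IL6Ra ko/IL21R ko T cells Tk2 (0.78) and Nt5c3b (0.60) were higher than with total T cells and Pgm2 (-0.46) was lower.

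Of 9 pyrimidine synthesis genes the kinases Nme2 (0.90 ± 0.21, q = 0.00319) and Cmpk1 (0.57 ± 0.13, q = 0.00244) rose with total T cells, and none fell. The enzymes that build the ring were not called, with Cad at -0.41 ± 0.20, Dhodh at -0.32 ± 0.22 and Umps at -0.18 ± 0.15. Against total T cells the IL6Ra ko/IL21R ko group had Nme2 (-0.70), Cmpk1 (-0.48) and Nme1 (-0.41) lower. Among 6 tested genes of nucleoside transport and uridine nucleotide signalling, Slc28a2 rose by 0.62 ± 0.14 (q = 0.00226). The equilibrative nucleoside transporter Slc29a1 fell by 0.89 on the log2 scale (SE 0.19, q = 0.0016), from 215 ± 27.9 to 121 ± 52.1 CPM. The UDP receptor gene P2ry6 fell by 0.43 on the log2 scale (SE 0.13, q = 0.0191). With IL6Ra ko/IL21R ko T cells Slc29a1 (1.27) and P2ry6 (0.55) were higher than with total T cells, and Slc28a2 (-0.50) was lower.

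In IL22 ko against IL6Ra ko/IL21R ko the most abundant gene of each list was not called. The log2 differences were 0.07 ± 0.08 for Sdha, -0.10 ± 0.25 for Hmox1, 0.26 ± 0.20 for Got2, 0.38 ± 0.14 for Slc3a2 and 0.60 ± 0.23 for Nampt. For Tk2, Cmpk1 and P2ry6 they were -0.20 ± 0.17, 0.09 ± 0.14 and -0.10 ± 0.15. The adjusted p of these 8 genes ran from 0.356 to 0.966 by edgeR.

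Likeness between 2 genes was read as the mean absolute difference of their log2 CPM over the 27 libraries, each gene scaled to a mean of 0 and an SD of 1. The median over all genes was 1.07 to 1.12 for the 5 members. Among the members Acod1 and Upp1 were closest (0.389), then Acod1 and Kynu (0.439) and Kynu and Upp1 (0.445). Uck2 lay at 0.678 to 0.755 from these 3. Kmo was unlike all of them (1.30 to 1.39), and with its sign turned it lay at 0.470 from Upp1 and 0.523 from Acod1. The points share libraries, sets and the group differences above, so the values are a description.

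The genes nearest to Acod1 were the transporter gene Slco3a1 (0.260), the protease inhibitor gene Serpina3g (0.264) and the interferon-induced GTPase gene Gbp2 (0.278). Gbp2 had 96.7 ± 43.3 CPM without T cells, 826 ± 608 with total T cells and 253 ± 75.7 with IL22 ko T cells. Nearest to Kynu were Pdk3 (0.378), Slco3a1 (0.410) and Plaa (0.422). Upp1 was nearest to Procr, the protein C receptor gene (0.336), Snx10 (0.341) and the hexose transporter gene Slc2a6 (0.351). Slc2a6 had 11.3 ± 8.76 CPM without T cells, 112 ± 77.5 with total T cells and 27.9 ± 24.3 with IL22 ko T cells. Uck2 was nearest to Mcemp1 (0.402), Smim3 (0.423) and B4galnt1 (0.424), and Kmo to Susd1 (0.363), the choline transporter gene Slc44a1 (0.376) and Cmtm4 (0.379).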

How the data were processed

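Macrophages were sorted from digested dura, and their RNA was read from a single end with an unstranded kit, per the labels' protocols. The authors deposited 1 table for the series, and the submitters' processing notes name STAR 2.4.0j, featureCounts, DESeq2 1.20.0 and GRCm38, with no roles given. The deposited values are raw read counts per gene, judged from the values (whole numbers, with each count from 0 to 20 present in all 27 columns), although the table's name speaks of normalized values. Columns were matched to groups by name. Of 41388 identifiers 40254 had a GENCODE M21 symbol, and those without one held 0.106% to 0.143% of counts.

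Genes with a mean count of at least 10, scaled to the mean library total, were kept (12682, with all 5 members among them). One edgeR model (version 4.0.16, R 4.3.3, quasi-likelihood, TMM scaling) with terms for group and sex was fitted to all 27 libraries and checked on simulated data. Adjusted p (q) is Benjamini-Hochberg over every gene tested, and a gene was called at q under 0.05. Differences are log2 fold changes ± SE, and levels are CPM ± SD over libraries. Library sets were cut at the 2 widest gaps in the share of counts in 82 ribosomal protein genes. The members and lists were chosen with earlier results of these data known. In each pathway list up to 3 called genes with the largest change are named per comparison, or the most abundant gene where none was called, and for likeness the 3 nearest genes. Hmox1, Nqo1, Haao, Qprt, Cad, Dhodh, Umps and genes under the filter were named after their values were seen. No pair of libraries within a group agreed within sampling noise (52 pairs, chi-square per degree of freedom 8.97 to 138). Alternatives were DESeq2 (version 1.42.0), median-ratio scaling, no filter or a minimum of 50, no sex term, F libraries alone, each set alone, a set term and each library left out.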

Additional observations from a re-analysis of the deposited data

Results flagged for a closer look

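Library F2 of the no T cells group stood far from the other 5 of its group for Acod1, at 29.7 CPM (0.966 to 5.20 CPM in the others), where its gap to the nearest library took 0.853 of the group's range. The same library stood apart for Upp1, at 7.81 CPM (136 counts), where the others had 0 to 7 counts and the gap took 0.927 of the range. Both gaps, taken on CPM, exceed the 95% critical value for 6 samples, which assumes normally distributed values. Of 15 groups of values examined, 2 were flagged. Chance flags about 1 in 20 under that assumption, which skewed CPM values and the Upp1 values at 0 do not meet. On the log2 CPM scale Acod1 had 4.8996 in F2, 2.423 in the next library and 0.1761 in the lowest. For Upp1 these values were 2.9951, -0.449 and -2.6101. The flags therefore describe CPM only, and F2 was the highest library on both scales. This library had the highest monocyte-derived marker sum of its group (1199 CPM, 685 to 874 in the others) and the lowest border macrophage sum (4635 CPM, 5109 to 6976 in the others), and their part in its levels was not tested. Without it, Acod1 differed between total T cells and no T cells by 6.45 ± 0.66 and Upp1 by 8.94 ± 1.23 on the log2 scale.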

How the results depend on the processing

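No paired analysis was possible because the table's columns do not carry the replicate numbers of the titles. Of 1303 values of the 5 members under alternatives, 71 had another sign than the value reported. In 9 of them the reported value was larger than the widest SD of log2 CPM in the groups compared. Another 10 passed a threshold that the reported test missed. For the exact permutation tests of Acod1 and Uck2 among these 10, that threshold was an unadjusted p under 0.05. The reported edgeR tests of these genes, judged by q, had unadjusted p of 0.00103 and 0.00458. With the set term, which rests on IL6Ra ko/IL21R ko M4 alone, Upp1 against total T cells became 0.77 for Tbet ko, 2.71 for IFNg ko and 0.94 for IL-17AF ko. Against no T cells it became 6.59 for Tbet ko, 8.53 for IFNg ko, 2.71 for IL6Ra ko/IL21R ko and 6.75 for IL-17AF ko. Kmo became -0.43, -0.64, -0.16 and -0.71 in the same groups and -0.39 for IL22 ko, and Acod1 became 2.72 for IFNg ko and 1.09 for IL6Ra ko/IL21R ko. Against total T cells Kmo became -0.05 for IFNg ko and -0.11 for IL-17AF ko. Without no T cells F2 the Upp1 values against no T cells became 1.2 for Tbet ko, 3.15 for IFNg ko, 2.70 for IL6Ra ko/IL21R ko and 1.36 for IL-17AF ko, and Acod1 became 1.21 for IFNg ko and 0.80 for IL6Ra ko/IL21R ko. Single libraries left out gave -3.89 to 1.2 for Tbet ko and -2.77 to 1.36 for IL-17AF ko. In set B alone Upp1 differed between total T cells and no T cells by a fitted 9.95, which depends on the prior count since both libraries without T cells were at 0, and leaving out single libraries gave 4.63 to 8.94. The causes were not tested.

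For total T cells against no T cells, 2663 genes and 32 list genes were called; F libraries alone gave 1613 and 21, set B alone 92 and 0 with fewer libraries, and single libraries left out 1717 (without total T cells M1) to 2978 and 24 to 36. For IL6Ra ko/IL21R ko against total T cells, 3565 and 34 became 1978 and 19 with F libraries, 1810 and 21 with the set term, 827 and 10 in set B, and 2430 to 3842 and 22 to 36 with single libraries left out.

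For IL22 ko against IL6Ra ko/IL21R ko, 1 gene and 0 list genes became 83 and 2 with DESeq2, 558 and 5 without a filter, 0 with F libraries, 18 with the set term and 167 and 3 in set B. Leaving out single libraries gave 0 to 65 (without IL6Ra ko/IL21R ko M2) and 0 to 2. Without a filter edgeR called Acod1 (2.67, adjusted p = 3.13e-49), Kynu (2.02, adjusted p = 0.000954), Upp1 (1.78, adjusted p = 2.92e-05) and Uck2 (1.37, adjusted p = 0.00429). Their log2 differences stayed near the reported values, while the SE of Acod1 was 0.17 against 0.72 with the filter. More genes were called without a filter in the other tests too, so these calls only describe the setting. Set B alone called Acod1 (2.48, adjusted p = 0.00706). In exact permutation tests the difference of mean log2 CPM was 2.44 for Acod1 and 1.24 for Uck2 over all libraries, and 2.23 and 1.27 in set B. Between Tbet ko and IFNg ko 0 genes became 66 without a filter and 277 without IFNg ko F2 (lowest 0). For IL-17AF ko against the mean of these, 1 became 4 with DESeq2, 171 without a filter (Acod1 among them at 1.33, adjusted p = 3.37e-06), 10 with the set term, 5 in set C, and 0 to 101 (without IFNg ko F2) with single libraries left out. M against F gave 7, with 11 by DESeq2, 290 without a filter, 0 in set A and 5 to 8 with single libraries left out. Upp1 had 0 to 48 counts in the knockout libraries, which limits its fold changes. If the Tbet ko pair, whose column names are alike, is 1 animal, its n is 1.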
